A study of Mus musculus with 2 samples.

Results

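Border macrophages are the resident macrophages of the tissue around the brain, and the ones described here are those with little MHC class II RNA in mouse leptomeninges. They were picked cell by cell (10x barcode by barcode) from 2 libraries, R1 and R2. Barcodes with at least 400 genes and at most 10% of UMIs (unique molecular identifiers, 1 per captured RNA molecule) from mitochondrial genes were kept, 6026 in all. A kept barcode was gated as a macrophage when Mrc1, Ms4a7, Pf4, Cbr2, Stab1 and F13a1 summed to at least 4 UMIs and the microglia genes P2ry12, Tmem119 and Siglech to at most 1. It counted as low in MHC class II when Cd74, H2-Aa, H2-Ab1 and H2-Eb1 took under 0.3% of its UMIs. These conditions gave 1014 low-MHC macrophages, 444 in R1 and 570 in R2. The same gate with MHC class II at or above the limit gave 59 barcodes, called MHC class II macrophages below, 35 and 24 per library. For comparison, 176 microglia-gated barcodes (116 and 60) had at least 3 UMIs of the microglia genes and at most 1 of the macrophage genes.

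Both libraries belong to 1 group: leptomeninges peeled by hand from the cerebral hemispheres of Pdgfra-H2BGFP mice, 3 months old, of both sexes, and digested to single cells. Loading aimed at no more than 5000 cells per sample. Pdgfra-H2BGFP is a reporter allele that puts green fluorescent protein into the nuclei of Pdgfra-expressing cells, which are mostly fibroblasts in this tissue. The labels name no sort, no treatment and no control group, and do not say whether R1 and R2 came from separate animals. No p-value here can therefore be read as a spread between animals. With library as a block, p-values measure only how differences between classes vary from R1 to R2.

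The leptomeninges are the pia and arachnoid, thin membranes that hold the cerebrospinal fluid and the larger surface vessels. Their macrophages, like those along penetrating vessels, take up proteins, lipids and dying cells with scavenger and lectin receptors and make chemokines and growth factors. They share the growth factor receptor Csf1r and complement C1q with microglia, the macrophages of the brain tissue itself, but lack the microglial genes P2ry12, Tmem119 and Sall1. MHC class II proteins present peptides to CD4+ T cells, and border macrophages are commonly divided into a subset with Lyve1 and little MHC class II and a subset with much of it.

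Low-MHC macrophages were 14.9% of kept barcodes in R1 (exact 95% interval 13.6 to 16.2%) and 18.8% in R2 (17.4 to 20.2%), or 16.8% ± 2.76 (SD, n = 2). They were 92.7% (90.0 to 94.9%) of the macrophage-gated barcodes in R1 and 96.0% (94.0 to 97.4%) in R2. Intervals cover counting error only, and the intervals of the share of kept barcodes did not overlap between the libraries. The low-MHC macrophages held 1114466 UMIs in R1 and 1202848 in R2, with a median of 1453.5 and 1227 UMIs and 798 and 696.5 genes per barcode. They were shallower than the microglia-gated barcodes, whose medians were 3492 and 2732.5 UMIs. The libraries shared 93 barcode sequences, 2 of them among the low-MHC macrophages of R1 and 1 among those of R2. No doublet caller was run. In this kind of data fewer cells of a type and less RNA per cell cannot be told apart in a summed level.

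Most low-MHC macrophages had no MHC class II UMI at all: 308 (69.4%) in R1 and 437 (76.7%) in R2. These genes set the limit and are described only. The 3 barcodes just inside it had 0.275, 0.290 and 0.298% in R1 and 0.272, 0.296 and 0.299% in R2. Just outside it stood 0.310, 0.313 and 0.316% in R1 and 0.304, 0.333 and 0.399% in R2. Several of these rested on very few molecules: the barcode at 0.304% in R2 had 2 MHC class II UMIs and the one at 0.316% in R1 had 3. The limit therefore cut through a sparse tail rather than a gap, as the plot of MHC class II shares by library shows. Among the 59 MHC class II macrophages, 14 in R1 and 9 in R2 had at least 2%, and these held 93.9% and 95.3% of the class's MHC class II UMIs. The other 21 and 15 barcodes lay between 0.3 and 2%.

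**Figure D1:**
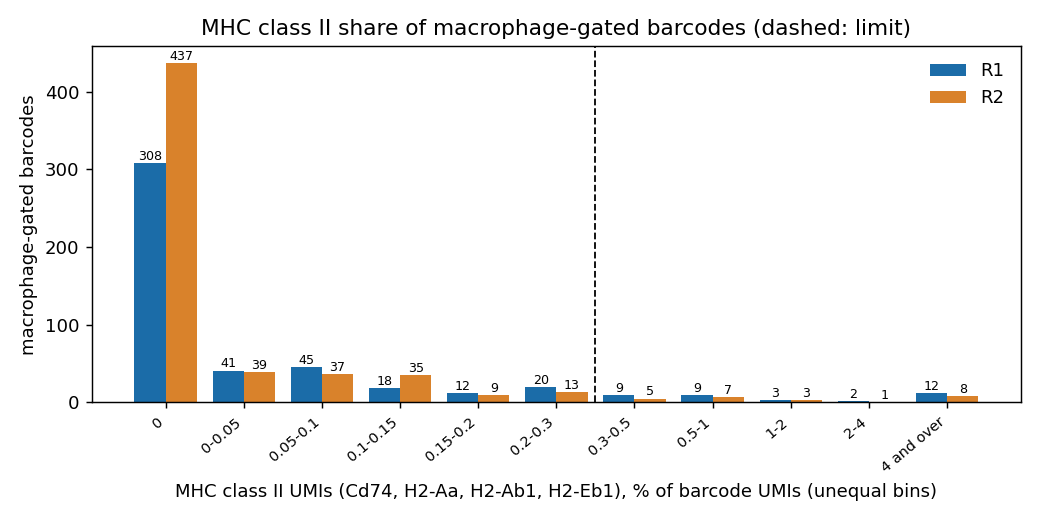
Number of macrophage-gated barcodes (vertical axis) by the share of their UMIs from Cd74, H2-Aa, H2-Ab1 and H2-Eb1 (horizontal axis, in percent, uneven bins), for R1 and R2, with the 0.3% limit dashed. The bin with no such UMI holds 308 barcodes in R1 and 437 in R2, and the bin of 4% and above holds 12 and 8.

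The genes of the macrophage gate were abundant in the low-MHC macrophages, which the gate fixed. All levels below are counts per 1000000 UMIs (CPM) summed over the barcodes of a class in 1 library. A UMI stands for 1 molecule, and counts were not scaled by transcript length. Pf4, a platelet-factor chemokine found in border macrophages, was at 3944 CPM in R1 and 4607 in R2. Mrc1, the mannose receptor CD206, was at 2692 and 2995 CPM, and Stab1, a scavenger receptor, at 1904 and 2238. F13a1, a transglutaminase, was at 1038 and 1117 CPM, Ms4a7 at 992 and 1035, and Cbr2, a carbonyl reductase, at 502.5 and 659. Cd74, the invariant chain of MHC class II, was at 162 and 174 CPM. The gate's genes were weaker in the MHC class II macrophages, with a median of 7 macrophage-gene UMIs per barcode in both libraries against 14 and 13 in the low-MHC ones.

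Of the 4 marker genes given for these cells, Mrc1 and Pf4 belong to the gate, and Lyve1 and Cd163 do not. Lyve1, a hyaluronan receptor, lies on chromosome 7 at 110850607 to 110863239 on the minus strand, and Cd163, the scavenger receptor for haptoglobin-bound hemoglobin, on chromosome 6 at 124304656 to 124330527 on the plus strand (mm10). Lyve1 reached 364 CPM in R1 and 698 in R2 in the low-MHC macrophages (531 ± 236, SD, n = 2). In MHC class II macrophages it was at 30.1 and 29.9 CPM and in microglia-gated barcodes at 2.46 and 0. Cd163 reached 369 and 530 CPM (450 ± 114), against 188 and 89.8 in MHC class II macrophages and 0 in both libraries of microglia-gated barcodes. For both genes the low-MHC macrophages of each library lay above every value of the other classes, and for both R2 was the higher library. Low-MHC macrophages held 14.6% of the kept UMIs in R1 and 19.2% in R2, but 64.9 and 68.7% of all Lyve1 UMIs and 62.8 and 66.4% of all Cd163 UMIs. The marker levels thus bear out the label.

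Lyve1 and Cd163 did not mark every cell at this depth. Each barcode was thinned to 1000 UMIs, which left 328 low-MHC macrophages in R1 and 362 in R2, with 116 and 208 shallower ones left out. Of these, 25.6% (21.0 to 30.7%) and 40.3% (35.2 to 45.6%) had a Lyve1 UMI after thinning, and 26.2% (21.5 to 31.3%) and 34.5% (29.6 to 39.7%) a Cd163 UMI. Before thinning, and with the shallower barcodes included, the shares of all low-MHC macrophages were 36.5 and 44.9% for Lyve1. For Cd163 they were 35.8 and 38.9%. Endothelial barcodes, which should lack both genes, gave the background: 0.576 and 0% with a Lyve1 UMI and 0 and 0.347% with a Cd163 UMI after thinning, at median depths of 1922 and 1656 UMIs before it. Both genes were seen in 27 barcodes of R1 and 62 of R2, Lyve1 alone in 57 and 84, Cd163 alone in 59 and 63, and neither in 185 and 153. At 1000 UMIs a barcode without a UMI may still express the gene.

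RNA typical of other cells was present in the low-MHC macrophages, and 84.9% of them in R1 and 82.6% in R2 had at least 5 UMIs of such markers. The same share was 85.7 and 75% in MHC class II macrophages and 92.2 and 88.3% in microglia-gated barcodes. Endothelial markers (6 genes) summed to 290 and 277 CPM, against 14941 and 15559 in endothelial-gated barcodes. Fibroblast markers (7 genes) summed to 583 and 637 CPM, against 2446 and 2400 in those endothelial barcodes and 1932 and 1989 in all kept barcodes outside the macrophage gate. No fibroblast class was gated. Astrocyte markers summed to 710 and 494 CPM, neuronal ones to 399 and 131, mural-cell ones to 451 and 318, oligodendrocyte ones to 118 and 82.3 with Mog at 0, and neutrophil ones to 30.5 and 21.6. B-cell and plasma-cell markers came to 169 and 142 CPM. T-cell and NK-cell markers came to 1.79 CPM in R1, where Cd3d, Trac, Nkg7 and Gzma were at 0, and to 338 in R2. The microglia genes of the gate were at 92.4 and 87.3 CPM against 4341 and 4219 in the microglia-gated barcodes.

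Red-cell RNA had the highest summed level of these lists. The 5 erythroid markers summed to 33639 CPM in R1 and 21146 in R2, and 20 (4.50%) and 26 (4.56%) low-MHC macrophages had at least 1% of their UMIs from them. In each library 2 barcodes held as many erythroid UMIs as the rest of the class or more. MHC class II macrophages had 1279 and 1572 CPM and microglia-gated barcodes 12840 and 1508. All kept barcodes outside the macrophage gate, the microglia-gated ones included, had 76176 and 59897. The hemoglobin genes Hba-a1, Hba-a2, Hbb-bt and Hbb-bs had the largest rises over MHC class II macrophages among the genes named by the rule (log2 fold changes of 4.68, 4.60, 4.47 and 4.02 in edgeR's test, described next). With barcodes of at least 1% erythroid UMIs left out, none of the 4 was called: the differences were 0.37, 0.41, -0.18 and 0.27, with adjusted p-values of 0.490, 0.479, 0.841 and 0.418 in edgeR.

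Which genes set low-MHC macrophages apart was asked of summed UMIs per library and class with edgeR's quasi-likelihood test, with library as a block and all 3 classes in 1 fit. Fold changes are log2 of low-MHC macrophages over the other class ± SE, p-values were adjusted over 5531 tested genes (Benjamini-Hochberg), and 0.05 was the threshold. The 13 genes of the gate and limit were not tested, but the tested genes were counted in the same barcodes. Against MHC class II macrophages 425 genes were called, 7.68% of those tested: 132 were higher (2.39%) and 293 lower (5.3%) in the low-MHC macrophages. Against microglia-gated barcodes 1535 genes were called (27.8%), 810 higher (14.6%) and 725 lower (13.1%). The median log2 fold change of all tested genes was 0.04 in the former and 0.0145 in the latter. Both comparisons use the same low-MHC barcodes and are given side by side, without a test of their overlap. The shares called over all tested genes are the background for the counts per list below.

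Most calls of the first comparison were also made beside the barcodes with the most MHC class II alone, and few beside the others alone. Against only the 36 MHC class II macrophages between 0.3 and 2% (21 and 15), 9 genes were higher and 12 lower out of 5974 tested, and at an unadjusted p below the same threshold 397 and 120. Those higher were Lyve1 (log2 fold change 2.89), the chemokine Ccl24 (2.26), the endocytic adaptor Dab2 (0.92), the cystine transporter Slc7a11 (2.94), Igfbp4 (1.11) and the 4 hemoglobin genes. Those lower were H2-DMa (-2.25), Ccl8 (-1.62), Ccl5 (-2.33), Fos (-1.49), Cd52 (-1.42), S100a4 (-1.77), Plac8 (-3.14), Lgals3 (-1.56), Mpeg1 (-1.97), Phf11b (-3.52), Btg1 (-1.44) and Igfbp5 (-1.05). All 21 are named because they are all of the calls, not by the rule for named genes. Against only the 23 barcodes of at least 2%, 288 genes were higher and 319 lower, among them 112 of the 132 and 265 of the 293 called for the whole class. Barcodes between 0.3 and 2% were shallower, with a median of 1847 and 1147 UMIs against 3044.5 and 3820, and the part of depth was not tested. DESeq2 called 43 higher and 195 lower for the whole class, and 260 and 295 against microglia-gated barcodes. Of the 72 genes of the lists below that are reported and that edgeR called against MHC class II macrophages, DESeq2 called 41, and of 120 against microglia-gated barcodes 88. Losses of that kind among the genes named are given beside them. With all barcodes of 5 or more UMIs of other cell types left out, edgeR called 0 of 308 tested genes against MHC class II macrophages (11 higher and 16 lower at an unadjusted p below the threshold, DESeq2 not run there). That setting left only 5 and 6 MHC class II macrophages beside 67 and 99 low-MHC ones, too few to read the 0 as an absence of differences.

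Markers of other immune cells moved with the first comparison. The 7 monocyte markers summed to 568 and 347 CPM in low-MHC macrophages against 3558 and 2411 in MHC class II macrophages. The 8 dendritic-cell markers summed to 207 and 226 CPM against 1219 and 749, with Xcr1, Clec9a and Ccr7 at 0 in the low-MHC macrophages of both libraries. Ccr2, a chemokine receptor of monocytes, was at 53.8 and 14.96 CPM against 692 and 614, and S100a4 at 118 and 49.9 against 1031 and 195. Napsa was at 34.99 and 9.14 CPM against 414 and 270. Of the tested monocyte markers 4 of 4 were lower in low-MHC macrophages, Plac8 only through R1, and of the tested dendritic-cell markers 3 of 3. Their part in the differences below was not tested. The barcodes at 2% or more, a minority of the class, held 57.4 and 65.8% of its UMIs.

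Other genes of the MHC class II pathway followed the genes that set the limit and are given as values. H2-DMa and H2-DMb1, which load peptides, were at 51.1 and 41.6 and at 69.1 and 64.8 CPM in low-MHC macrophages, against 888 and 1093 and 722 and 689 in MHC class II macrophages. Ciita, the transcriptional activator of these genes, was at 1.79 and 0 CPM against 211 and 89.8. The thiol reductase Ifi30 was at 232 and 202 CPM against 421 and 359, the smallest gap of these genes.

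Many scavenger and lectin receptors were higher in the low-MHC macrophages than in either other class. Of 28 such genes 23 were tested. Against MHC class II macrophages 11 were higher and 3 lower (median log2 fold change 1.23). Against microglia-gated barcodes 20 were higher and 1 lower (median 7.07, or 4.79 with 8 genes at 0 in microglia set to their lower bounds). Those 8 genes passed the filter on low counts through the macrophages alone, so that they had to differ there. Genes of the list with 1 to 3 UMIs there, such as Lyve1, Folr2 and Cd209f, also passed it through the macrophages. Their direction was all but fixed too, so the count of 20 describes the list and is no test of it. Beside the 0.3 to 2% barcodes 2 of 23 were higher, Lyve1 and Dab2, and 0 lower (median 0.59).

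Lyve1 was 3.83 ± 0.38 higher than in MHC class II macrophages (edgeR, adjusted p = 2.03e-09), with its levels given above. Its ratio to microglia-gated barcodes, where 1 UMI was seen, was 319 (95% counting interval 57.1 to 12595). Cd163 was 1.33 ± 0.28 higher (edgeR, adjusted p = 0.000895). DESeq2 did not call it (adjusted p = 0.106), and beside the 0.3 to 2% barcodes it was 0.70 with an edgeR adjusted p = 0.517. It was at least 89.5-fold higher than in microglia-gated barcodes, taking 3 UMIs over both libraries as the floor.

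Folate receptor Folr2 stood at 267 and 289 CPM in low-MHC macrophages, 37.6 and 59.9 in MHC class II macrophages, and 0 and 5.37 in microglia-gated barcodes. The fold change to MHC class II macrophages was 2.45 ± 0.40 (edgeR, adjusted p = 2.22e-05). The soluble lectin ficolin-A, Fcna, was at 135 and 180 CPM against 30.1 and 14.97, a fold change of 2.44 ± 0.51 (not called by DESeq2, adjusted p = 0.119), and was absent from the counts of microglia-gated barcodes. Both genes kept the same order in both libraries, with the low-MHC macrophages highest and the microglia-gated barcodes at or near 0.

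C-type lectins of the Cd209 family bind mannose- and fucose-rich glycans, and their members went different ways. Cd209f was at 922 and 1235 CPM in low-MHC macrophages, 233 and 599 in MHC class II macrophages and 7.37 and 0 in microglia-gated barcodes (1.35 ± 0.21 over MHC class II macrophages). Cd209g was at 308 and 350 CPM against 52.7 and 105 (2.04 ± 0.34), and at least 65.2-fold higher than in microglia-gated barcodes. Cd209a, which dendritic cells also express, ran the other way, at 163 and 203 CPM against 655 and 404 (-1.77 ± 0.25). All of these passed edgeR's test, but DESeq2 did not call Cd209a (adjusted p = 0.999). These genes are close paralogs, and reads shared between copies could be split in the counting.

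Mgl2, a galactose-type lectin known from dermal dendritic cells and some macrophages, had the largest drop of the list. It was at 197 and 151 CPM in low-MHC macrophages and 1196 and 1378 in MHC class II macrophages, without overlap (-3.01 ± 0.18, edgeR, adjusted p = 5.47e-15). Beside the 0.3 to 2% barcodes the Mgl2 difference was 0.0755, of the opposite sign and not called. In microglia-gated barcodes Mgl2 was at 4.92 and 10.7 CPM. Clec12a was also lower than in MHC class II macrophages, at 33.2 and 32.4 CPM against 105 and 195 (-2.25 ± 0.42).

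The C-type lectin Clec4n (dectin-2) was at 248 and 303 CPM against 90.3 and 44.9 (1.70 ± 0.35, with a DESeq2 adjusted p = 0.0774). Dab2, an adaptor for endocytosis of lipoprotein receptors, was at 1322 and 1444 CPM against 414 and 479 (1.49 ± 0.19), and 14.8 and 32.2 in microglia-gated barcodes. Colec12 and Fcgrt, the neonatal Fc receptor, were likewise higher than in both other classes by edgeR, Colec12 not by DESeq2 against MHC class II macrophages (adjusted p = 0.136). Lrp1, a large lipoprotein receptor, was the list's only gene lower than in microglia-gated barcodes, at 181 and 156 CPM against 467 and 446 (-1.31 ± 0.17). The plot of receptor levels by class shows these orders.

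**Figure D2:**
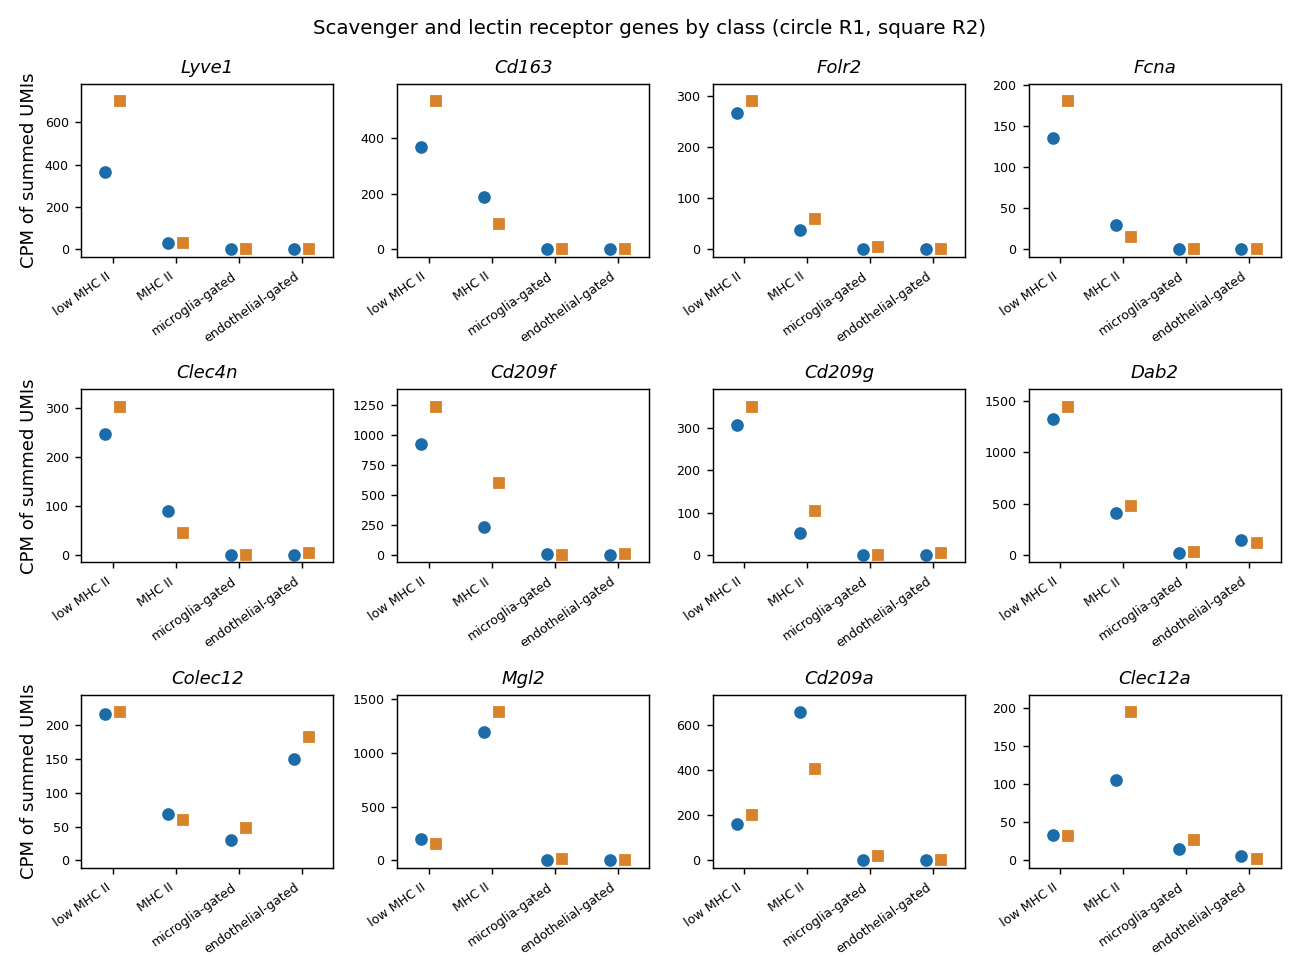
CPM of summed UMIs (vertical axes, each panel on its own linear scale) of 12 scavenger and lectin receptor genes in low-MHC macrophages, MHC class II macrophages, microglia-gated and endothelial-gated barcodes; circles are R1 and squares R2. Lyve1, Cd163, Folr2, Fcna, Clec4n, Cd209f, Cd209g, Dab2 and Colec12 are highest in the low-MHC macrophages in both libraries, while Mgl2, Cd209a and Clec12a are highest in the MHC class II macrophages.

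Genes of phagocytosis and Fc receptors did not follow the scavenger receptors. Of 22 genes 20 were tested. 1 was higher and 3 lower than in MHC class II macrophages (median 0.00), and 4 higher and 9 lower than in microglia-gated barcodes (median -0.40). Gas6, the ligand that bridges dying cells to the receptors Axl and Mertk, was at 891 and 995 CPM against 323 and 299 in MHC class II macrophages (1.43 ± 0.20, edgeR, adjusted p = 2.63e-06) and 170 and 129 in microglia-gated barcodes (2.71 ± 0.18). Of its receptors, Axl was at 19.7 and 19.95 CPM against 90.3 and 59.9 in MHC class II macrophages (-2.06 ± 0.59, edgeR, adjusted p = 0.0209), 12 and 4 UMIs in the latter. The Axl call was lost with DESeq2 (adjusted p = 0.386), with at least 1000 genes per barcode (0.0600) and among barcodes of at least 1% Malat1 (0.0569). Mertk, at 74.5 and 82.3 CPM, was lower than in microglia-gated barcodes, which had 322 and 327 (-1.94 ± 0.21).

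The integrin chain Itgb2 was lower than in both classes, at 62.8 and 71.5 CPM against 173 and 150 in MHC class II macrophages (-1.46 ± 0.33) and 140 and 177 in microglia-gated barcodes (-1.11 ± 0.24). Cd14, the co-receptor for lipopolysaccharide, was also lower than in both (-0.99 ± 0.24 and -1.11 ± 0.17). DESeq2 called neither Itgb2 difference (adjusted p = 0.0672 and 0.0615), nor Cd14 against MHC class II macrophages (0.0965). The inhibitory Fc receptor Fcgr2b, at 709 and 653 CPM, was higher than in microglia-gated barcodes (2.01 ± 0.17) but not distinguished from MHC class II macrophages (-0.02 ± 0.17, adjusted p = 0.968). Cd93 was at 49.4 and 69.0 CPM, with a ratio to microglia-gated barcodes of 11.8 (3.95 to 57.8) over 3 UMIs there.

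The C1q chains were strongly expressed, and C3 was not, at 19.7 and 3.33 CPM. Of 13 complement genes 10 were tested. 4 were higher and 0 lower than in MHC class II macrophages (median 0.62), and 5 higher and 1 lower than in microglia-gated barcodes (median 0.56). C1qa, a chain of the C1q starter molecule, was among the most abundant RNAs, at 6068 and 6589 CPM against 3152 and 4851 in MHC class II macrophages (0.54 ± 0.17, edgeR, adjusted p = 0.0442) and 7390 and 7746 in microglia-gated barcodes. Without the library block the first C1qa difference was not called (edgeR, adjusted p = 0.170). C1qb, called lower than in microglia-gated barcodes, was at 4814 and 5577 CPM against 7481 and 7612 (-0.44 ± 0.16), a call lost without the block (adjusted p = 0.119) and with DESeq2 (0.0726). C1qa and C1qc were not called against the microglia-gated barcodes (-0.15 ± 0.16 and -0.20 ± 0.16).

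Of the other complement genes, C5ar1 was higher than in both classes and C4b and Cfp than in microglia-gated barcodes alone. C5ar1, the receptor for the C5a fragment, was at 121 and 172 CPM against 22.6 and 59.9 in MHC class II macrophages (1.81 ± 0.46, edgeR, adjusted p = 0.00794) and 32.0 and 59.0 in microglia-gated barcodes (1.85 ± 0.29). DESeq2 did not call the first difference (adjusted p = 0.226). Properdin, Cfp, was at 122 and 101 CPM, with a ratio to microglia-gated barcodes of 66.0 (11.7 to 2618) over 1 UMI there, and overlapped with MHC class II macrophages, at 150.5 and 89.8 (-0.31 ± 0.34). C4b, a chain of complement C4, was at 245 and 269 CPM against 248 and 225 in MHC class II macrophages (-0.07 ± 0.25) and was 4.49 ± 0.36 higher than in microglia-gated barcodes. The C3a receptor C3ar1 was at 196 and 187 CPM against 173 and 180 in MHC class II macrophages (-0.02 ± 0.28). None of the 10 complement genes was called beside the 0.3 to 2% barcodes (edgeR).

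Chemokines and cytokines split into a few high genes and a lower remainder. Of 22 genes 14 were tested: 1 higher and 3 lower than in MHC class II macrophages (median -0.94), and 4 higher and 5 lower than in microglia-gated barcodes (median -0.44). Ccl24, which attracts eosinophils, was at 235 and 293 CPM against 30.1 and 14.97 in MHC class II macrophages (3.20 ± 0.45, adjusted p = 2.77e-06) and 7.37 and 5.37 in microglia-gated barcodes (5.29 ± 0.39). It was found in 22.9 and 20.7% of thinned low-MHC macrophages and in 0% of endothelial ones in both libraries. Low-MHC macrophages held 69.9 and 63.8% of the Ccl24 UMIs of all kept barcodes, and the remainder lay in other kept barcodes.

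Ccl8 was at 191 and 154 CPM and at 0 in the microglia-gated barcodes of both libraries, at least 34.0-fold higher. Against MHC class II macrophages, at 158 and 419 CPM, the Ccl8 libraries overlapped (-0.70 ± 0.31, edgeR, adjusted p = 0.193), but beside the 0.3 to 2% barcodes it was lower (-1.62). Ccl4, a chemokine for T cells and monocytes, was lower than in both classes, at 7.18 and 9.98 CPM against 67.7 and 59.9 in MHC class II macrophages (-3.13 ± 0.59) and 187 and 295 in microglia-gated barcodes (-4.65 ± 0.29). The related Ccl3 was lower than in microglia-gated barcodes, 26.9 and 19.1 CPM against 295 and 655. Il1a, an inflammatory cytokine, had 0 UMIs in both libraries against 76.2 and 59.0 CPM in microglia-gated barcodes, at least 54.7-fold lower. Both 0 counts, this and that of Ccl8 in microglia-gated barcodes, fixed the direction, since the genes passed the filter on low counts through other classes. Ccl6 and Ccl9 were lower than in MHC class II macrophages (-1.63 ± 0.30 and -2.28 ± 0.57), Ccl9 not by DESeq2 (adjusted p = 0.217).

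Of 16 growth factors and guidance genes 9 were tested: 2 higher and 1 lower than in MHC class II macrophages (median 0.47), and 4 higher and 2 lower than in microglia-gated barcodes (median 0.35). Igf1, insulin-like growth factor 1, was at 301 and 266 CPM against 67.7 and 74.9 (1.90 ± 0.36, edgeR, adjusted p = 0.000218), and 12.3 and 0 in microglia-gated barcodes (5.18 ± 0.39). A UMI of Igf1 was found in 25.6 and 21.3% of thinned low-MHC macrophages and in 0.865 and 1.04% of endothelial ones. The Igf1 difference was 0.95 beside the 0.3 to 2% barcodes, with adjusted p = 0.468. Bmp2, a bone morphogenetic protein, was at 52.0 and 46.6 CPM against 0 in both libraries of MHC class II macrophages, at least 3.27-fold higher (called by edgeR but not by DESeq2, adjusted p = 0.224). It passed the filter on low counts without a UMI in that class, so that its direction there was fixed. Pdgfb, the ligand that mural cells respond to, ran lower than in both classes, at 33.2 and 27.4 CPM against 82.8 and 165 (-2.07 ± 0.43) and 165 and 263 (-2.65 ± 0.26).

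Receptors that sustain macrophages and the transcription factors of the lineage showed changes both ways. Of 27 genes 24 were tested: 3 higher and 5 lower than in MHC class II macrophages (median -0.36), and 4 higher and 10 lower than in microglia-gated barcodes (median -0.30). Over all tested genes 14.6% were higher and 13.1% lower than in microglia-gated barcodes, so the 4 higher genes were near the general share. The transcription factor Maf was at 1638 and 1945 CPM in low-MHC macrophages against 527 and 809 in MHC class II macrophages (1.32 ± 0.18, edgeR, adjusted p = 1.5e-06) and 659 and 709 in microglia-gated barcodes (1.48 ± 0.16). Its low-MHC values lay above those of both other classes in each library. Id3, an inhibitor of basic helix-loop-helix transcription factors, was at 129 and 130.5 CPM against 45.1 and 44.9 (1.38 ± 0.43, edgeR, adjusted p = 0.0415), which DESeq2 did not call (0.524). Id3 was higher in endothelial-gated barcodes, at 1001 and 1195 CPM, and in all kept barcodes outside the macrophage gate, at 485 and 596. The part of other cells' RNA in its difference was not tested.

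Csf1r, the receptor for the growth factor macrophages depend on, was at 1361 and 1405 CPM against 647 and 404 in MHC class II macrophages (1.21 ± 0.19). In microglia-gated barcodes, where it belongs to the identity genes given as values, it was at 2584 and 2233. Il10ra, a subunit of the interleukin 10 receptor, was lower than in both classes, at 55.6 and 58.2 CPM against 128 and 165 (-1.46 ± 0.35) and 199 and 193 (-1.69 ± 0.23), the first not called by DESeq2 (adjusted p = 0.0626). Ccr1, at 214 and 197 CPM, was 3.85 ± 0.35 higher than in microglia-gated barcodes.

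Microglia identity genes were low, and are given as values because the microglia gate selects for them. Sall1 was at 1.79 and 1.66 CPM against 233 and 236 in microglia-gated barcodes, and Cx3cr1 at 320 and 389 against 3120 and 3162. Trem2, a lipid receptor, was at 478 and 514 against 2367 and 2421. Fcrls overlapped, at 1341 and 1498 CPM in low-MHC macrophages and 1573 and 1020 in microglia-gated barcodes.

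Iron and heme handling genes were mostly higher than in microglia, and some were higher than in MHC class II macrophages. Of 14 genes 12 were tested: 5 higher and 1 lower than in MHC class II macrophages (median 0.76), and 9 higher and 1 lower than in microglia-gated barcodes (median 1.66). Slc40a1, ferroportin, the iron exporter, was at 170 and 185 CPM against 15.05 and 14.97 in MHC class II macrophages, a ratio of 11.8 (4.02 to 57.6) over 3 UMIs there, and 76.2 and 42.9 in microglia-gated barcodes (1.56 ± 0.26). Cp, ceruloplasmin, which oxidizes exported iron, was at 220 and 198 CPM against 75.2 and 59.9 (1.45 ± 0.36, edgeR, adjusted p = 0.00562) and 9.83 and 16.1 (4.24 ± 0.36). DESeq2 did not call the first Cp difference (adjusted p = 0.268). Endothelial-gated barcodes had more Cp, 441 and 418 CPM, and the part of other cells' RNA was not tested. Blvrb, biliverdin reductase B, acts on heme breakdown products and was at 684 and 758 CPM against 293 and 389 (0.96 ± 0.20) and 83.6 and 96.6 (3.11 ± 0.19).

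Heme oxygenase Hmox1 was at 155 and 221 CPM and the ferritin light chain Ftl1 at 6296 and 6338, both higher than in microglia-gated barcodes (2.13 ± 0.29 and 1.77 ± 0.16). The metal transporter Slc11a1 was lower than in both classes (-1.23 in each) by edgeR and in neither by DESeq2 (adjusted p = 0.424 and 0.0877). Red-cell markers ran in the same direction, at 33639 and 21146 CPM in low-MHC macrophages against 1279 and 1572 in MHC class II macrophages, and their part was not tested. Beside the 0.3 to 2% barcodes none of the 12 was called, with Slc40a1 at 2.47 (adjusted p = 0.0633). Among barcodes with at least 1% Malat1 UMIs alone, 5 were higher than in MHC class II macrophages and 9 higher than in microglia-gated barcodes. Over all genes tested in that setting 97 of 4996 and 611 of 6871 were higher.

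Lysosomal genes went both ways. Of 25 genes 24 were tested: 8 higher and 4 lower than in MHC class II macrophages (median 0.47), and 5 higher and 9 lower than in microglia-gated barcodes (median -0.17). Over all tested genes 14.6% were higher and 13.1% lower than in microglia-gated barcodes. The lysosomal membrane protein Cd63 was higher than in both, at 1071 and 1072 CPM against 316 and 434 (1.41 ± 0.20, edgeR, adjusted p = 2.99e-06) and 472 and 655 (1.07 ± 0.15). The protease Ctsd lay between the other classes, at 1571 and 1753 CPM against 564 and 689 in MHC class II macrophages (1.28 ± 0.19) and 5256 and 5132 in microglia-gated barcodes (-1.54 ± 0.15). Cathepsin S, Ctss, which trims the MHC class II invariant chain, was lower than in both, at 1333 and 1521 CPM against 2039 and 2710 (-0.87 ± 0.17) and 5802 and 6146 (-1.96 ± 0.16). Cst3, cystatin C, an inhibitor of cathepsins, was at 6800 and 7508 CPM against 54467 and 52102 in microglia-gated barcodes (-2.79 ± 0.17).

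Lipid handling was led by Apoe, the apolipoprotein that carries cholesterol between cells and the most abundant RNA of this class outside the gene groups left out of that ranking. Apoe was at 45657 and 47137 CPM against 22397 and 28121 in MHC class II macrophages (0.72 ± 0.18, edgeR, adjusted p = 0.00672) and 3149 and 2008 in microglia-gated barcodes (4.28 ± 0.21). The first Apoe call was lost without the block (adjusted p = 0.0731). Of 18 lipid genes 14 were tested: 2 higher and 2 lower than in MHC class II macrophages (median 0.56), and 7 higher and 2 lower than in microglia-gated barcodes (median 0.56). Ltc4s, which makes leukotriene C4, was at 665 and 747 CPM against 143 and 284 in MHC class II macrophages (1.72 ± 0.25) and 570 and 424 in microglia-gated barcodes (0.57 ± 0.16), the latter not called by DESeq2 (adjusted p = 0.436). Its upstream partner Alox5ap was lower than in MHC class II macrophages, at 218 in both libraries against 549 and 344 (-1.23 ± 0.21). The cholesterol exporter Abcg1 was at 2.69 and 2.49 CPM against 88.5 and 85.9 in microglia-gated barcodes (-4.81 ± 0.59), while Abca1, at 203 and 191 CPM, was not called against them (0.03 ± 0.20, adjusted p = 0.94).

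MHC class I heavy chains were the called genes of the list of class I and costimulation, with the proteasome subunit Psmb9. Of 16 genes 12 were tested: 0 higher and 3 lower than in MHC class II macrophages (median -0.64), and 3 higher and 0 lower than in microglia-gated barcodes (median 0.16). The class I heavy chain H2-D1 was at 1090 and 1189 CPM against 2031 and 1557 in MHC class II macrophages (-0.82 ± 0.16, edgeR, adjusted p = 0.000315) and 836 and 918 in microglia-gated barcodes (0.50 ± 0.15). H2-K1 followed it (-0.57 ± 0.16 and 0.73 ± 0.15). The nonclassical class I gene H2-T23 was at 176 and 146 CPM against 308 and 314 (-1.08 ± 0.24). Against MHC class II macrophages DESeq2 called neither H2-K1 (adjusted p = 0.381) nor H2-T23 (0.0828), and against microglia-gated barcodes neither H2-D1 (0.250) nor Psmb9 (0.555). MHC class I genes are close paralogs, and their counts may be split between copies.

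Interferon-response genes ran higher in the low-MHC macrophages than in microglia-gated barcodes, with part of the calls depending on the tool, and hardly differed from MHC class II macrophages. Of 19 genes 13 were tested: 0 higher and 1 lower than in MHC class II macrophages (median -0.07), and 8 higher and 0 lower than in microglia-gated barcodes (median 1.79). Ifitm3, an antiviral membrane protein, was at 708 and 734 CPM against 1083 and 1123 in MHC class II macrophages (-0.78 ± 0.19, edgeR, adjusted p = 0.00516) and 41.8 and 161 in microglia-gated barcodes (3.21 ± 0.24). The first Ifitm3 call was lost without the block (adjusted p = 0.106), with DESeq2 (0.809), beside barcodes of at least 2% MHC class II (0.107) and among barcodes of at least 1% Malat1, where the difference was -0.06 (0.974). Ifi207 was at 144 and 179 CPM against 0 and 21.5 in microglia-gated barcodes (4.54 ± 0.48), and Bst2 (tetherin) at 865 and 1028 against 241 and 365 (1.79 ± 0.16). Against microglia-gated barcodes DESeq2 did not call Ifi204 (adjusted p = 0.105), Oasl2 (0.283), Rtp4 (0.111) or Stat2 (0.753), which edgeR called. Stat2 was also lost without the block (edgeR, adjusted p = 0.0661). The core interferon genes Isg15 and Irf1 were not called in either comparison.

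Immediate-early genes, which are transcribed within minutes of a stimulus, were mostly lower than in both other classes. Of 20 such and heat-shock genes 18 were tested, and 12 were lower and 0 higher in each comparison (medians -1.72 and -1.07). Egr1 was at 23.3 and 25.8 CPM against 128 and 150 in MHC class II macrophages (-2.56 ± 0.39, edgeR, adjusted p = 9.4e-06) and 765 and 596 in microglia-gated barcodes (-4.67 ± 0.21). Junb was at 109 and 96.4 CPM against 685 and 240 (-2.39 ± 0.23) and 1119 and 918 (-3.18 ± 0.17). Btg2, which slows growth, was at 68.2 and 46.6 CPM against 376 and 270 (-2.65 ± 0.26) and 494 and 451 (-2.92 ± 0.19).

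The low-MHC levels of Egr1, Junb and Btg2 lay below every value of the other classes, whereas Atf3, called in the first comparison by edgeR but not by DESeq2 (adjusted p = 0.271), was at 0 in the MHC class II macrophages of R2. Depth and Malat1 content moved with these calls: 23.2 and 21.4% of low-MHC macrophages had at least 1% Malat1 UMIs, against 40 and 29.2% of MHC class II macrophages and 55.2 and 53.3% of microglia-gated barcodes. Within barcodes of at least 1% Malat1 alone, 11 of 18 were still lower and 0 higher in each comparison. Over all genes tested there 204 of 4996 and 602 of 6871 were lower. Within barcodes under 1%, 5 of 9 tested were lower than in MHC class II macrophages and 3 of 13 than in microglia-gated barcodes. Over all genes tested there 53 of 1149 and 181 of 4520 were lower. Beside the 0.3 to 2% barcodes 1 of 16 was lower, Fos, and the Egr1 difference had the opposite sign (1.24), not called.

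Few matrix genes passed the filter on low counts, 5 of 16. Tgfbi, a matrix protein induced by TGF-beta, was at 407 and 377 CPM against 32.0 and 26.8 in microglia-gated barcodes (3.82 ± 0.26, edgeR), and fibronectin Fn1 was at 258 and 195 CPM against 133 and 172 (0.77 ± 0.23). The Fn1 difference was 0.94 in R1 and 0.18 in R2, and its call was lost without the block (adjusted p = 0.0898), with DESeq2 (0.753) and in Malat1-rich and -poor barcodes alone (0.236 and 0.348). Endothelial-gated barcodes had more Fn1, 914 and 1027 CPM. Sparc, a matricellular protein, was at 175 and 156 CPM against 37.6 and 105 in MHC class II macrophages (1.32 ± 0.38, edgeR, adjusted p = 0.0239), and at 2849 and 2501 in microglia-gated barcodes. The Sparc call over MHC class II macrophages was lost without the block (adjusted p = 0.0630), with DESeq2 (0.243), with at most 5% mitochondrial UMIs (0.246) and in Malat1-rich and -poor barcodes alone (0.192 and 0.144). The difference was 0.13 with barcodes of 5 or more UMIs of other cell types left out, which left 5 and 6 MHC class II macrophages. Fibroblast markers ran in the same direction, at 583 and 637 CPM against 211 and 329 in MHC class II macrophages, and their part was not tested. In all, 1 matrix gene was higher and 0 lower than in MHC class II macrophages (median 0.35), and 2 were higher and 2 lower than in microglia-gated barcodes (median 0.55). Of 10 cell-cycle genes 2 were tested and 0 called (edgeR), with Stmn1 at 65.5 and 89.8 CPM and Pcna at 46.7 and 65.7.

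The plot of all lists shows which of them lay off 0 as a group in each comparison.

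**Figure D3:**
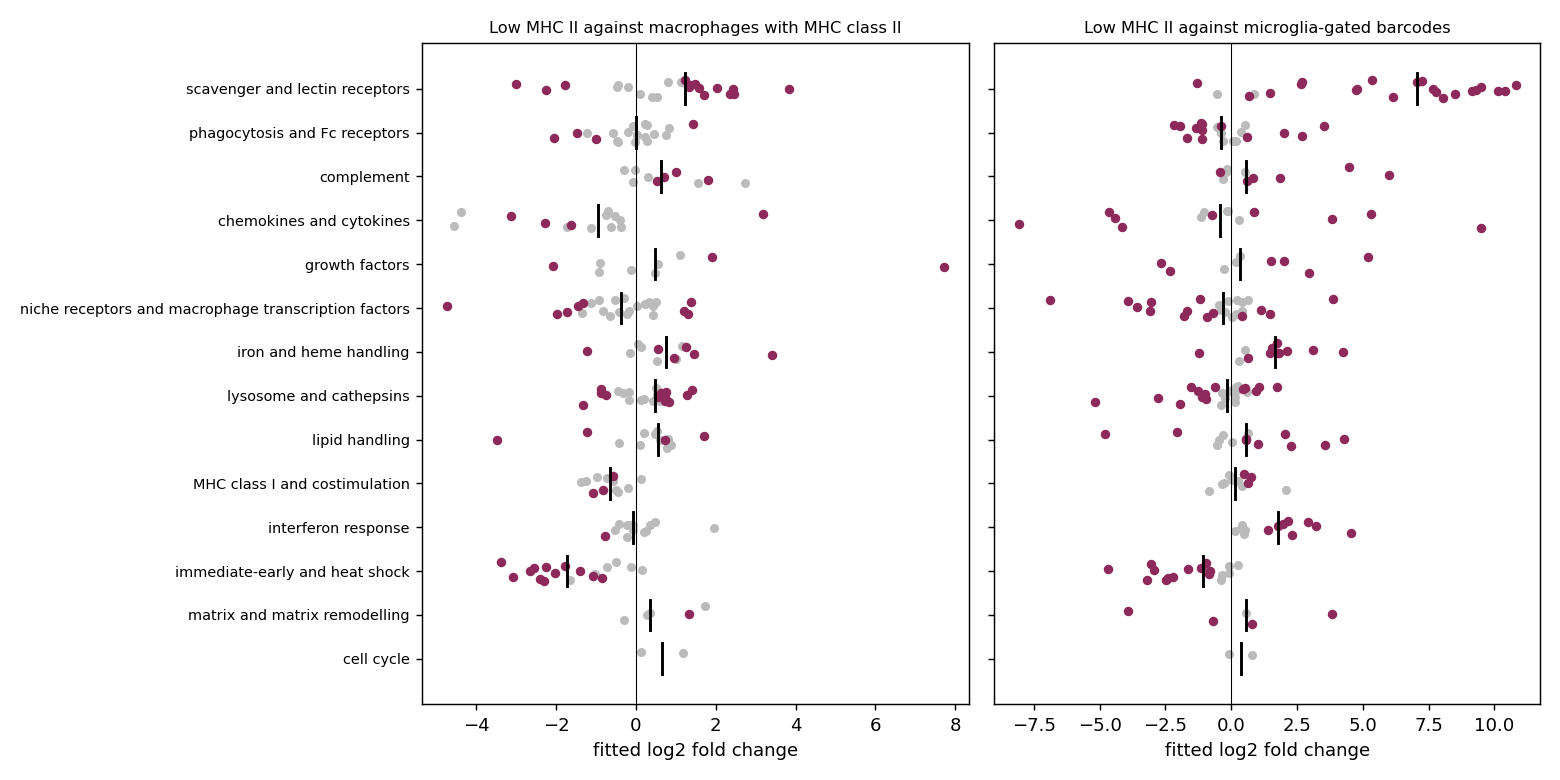
Fitted log2 fold change (horizontal axes, edgeR) of each tested gene, in 14 gene lists (rows), of low-MHC macrophages over MHC class II macrophages (left) and over microglia-gated barcodes (right); purple points passed an adjusted p of 0.05, grey points did not, and the black bar is the list's median. Scavenger and lectin receptors have the highest median on the right (7.07), where genes at 0 in microglia have fitted values that depend on the prior count, and immediate-early genes the lowest on both sides (-1.72 and -1.07).

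Outside the lists, the largest drops against MHC class II macrophages were in genes with 0 or a handful of UMIs in the low-MHC macrophages. Bcl2a1a, a survival gene of the Bcl2 family, and Jaml, a leukocyte adhesion molecule, had 0 UMIs in both libraries, at least 58.0- and 50.3-fold lower. All genes of this paragraph with 0 UMIs in a class passed the filter on low counts through other classes alone. The direction of their differences was therefore fixed. Slamf7 was at 0 and 2.49 CPM against 143 and 135, a ratio of 108 (33.5 to 557), and Clec4b1 at 3.59 and 0.831 against 173 and 120 (-6.03 ± 0.74, edgeR). Against microglia-gated barcodes Spint1 and Adora3 had 0 UMIs, at least 52.1- and 58.6-fold lower. Nav3 had 1 UMI, a ratio of 442 (77.7 to 17592). The rises there with the largest fitted values, Cd163, Cd209g, Clec4n, Cd36 and Ccl8, were all in genes with 0 UMIs in microglia-gated barcodes, so that the prior count sets their order. Their lower bounds ran from 34.0-fold for Ccl8 to 89.5-fold for Cd163, with Cd36, a fatty acid and lipoprotein receptor, at 153 and 212 CPM and at least 36.3-fold higher. Genes with 1 to 3 UMIs there had ratios above these bounds, such as 214 for Cd209f (73.3 to 1040.3) and 165 for Folr2 (29.6 to 6540.2). Clcn5, a chloride transporter of endosomes, was at 75.4 and 93.9 CPM against 7.52 and 0 in MHC class II macrophages, a ratio of 17.0 (3.01 to 674) over 1 UMI. DESeq2 did not call Clcn5 (adjusted p = 0.219).

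The most abundant RNAs of the low-MHC macrophages, leaving out mitochondrial and ribosomal protein genes and Malat1, were Apoe, Tmsb4x (thymosin beta-4), Ptgds, Hbb-bs, Fth1, Gm42418, Cst3, Lyz2, C1qa and Ftl1. Tmsb4x was at 19308 and 20276 CPM, the ferritin heavy chain Fth1 at 8658 and 8395, and lysozyme Lyz2 at 7032 and 6240. Ptgds, prostaglandin D synthase and a leading product of leptomeningeal fibroblasts, was at 12664 and 21449 CPM. It was higher still in endothelial-gated barcodes, at 36315 and 56479. All kept barcodes outside the macrophage gate, the endothelial-gated ones included, had 32912 and 61390. R2 had more Ptgds than R1 in each of these groups.

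Variation among the low-MHC macrophages was measured over barcodes thinned to 1000 UMIs by the index of dispersion, the variance of a gene's UMIs over their mean, which is 1 for pure counting noise. Its median over 2621 genes was 1.05 in both libraries. At an equal relative spread the index rises with a gene's level, so its order favors abundant RNAs and does not rank relative variation. Apoe averaged 49.0 and 49.1 UMIs per thinned barcode, and Ccl12 0.274 and 0.235. The genes with the highest index were Hbb-bs (333 in R1 and 318 in R2), Hba-a1 (103 and 109), Hbb-bt (97.0 and 101), Hba-a2 (83.8 and 77.5), Malat1 (35.1 and 39.8) and Ptgds (27.1 and 61.7). The 4 hemoglobin chains belong to red cells, and Ptgds was higher outside the macrophages, as given above. Apoe followed with 12.3 and 10.96, then the amino acid transporter Slc38a2 (6.94 and 6.08) and Tmsb4x (5.42 and 5.80). Further down the ranking stood the macrophage genes Ccl12, a chemokine (3.89 and 6.29), Lyz2 (5.93 and 3.87) and the lectin Cd209f (2.84 and 5.05).

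Malat1, a nuclear RNA, divided the low-MHC macrophages into 2 kinds of barcode. At least 1% Malat1 UMIs were found in 103 barcodes of R1 (23.2%, 19.3 to 27.4%) and 122 of R2 (21.4%, 18.1 to 25%), against 89.6 and 86.0% of endothelial-gated barcodes. The Malat1-rich barcodes had a median of 4676 and 4167.5 UMIs and 3.08 and 2.39% mitochondrial UMIs, and the others 1269 and 1063.5 UMIs and 5.88 and 5.78%. Values of both kinds are given without a test.

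Of the 28 scavenger and lectin receptor genes, 19 had higher CPM in the Malat1-rich barcodes in both libraries and 0 in the poor ones in both. Of the 27 receptors and transcription factors of the lineage the counts were 21 and 1, and of the 25 lysosomal genes 22 and 1. Other lists leaned the same way, with 17 and 1 of 22 phagocytosis genes and 16 and 2 of 20 immediate-early and heat-shock genes. Cell-cycle genes ran the other way, 0 and 7 of 10. The share over all genes was not computed, so these counts cannot be read as traits of single lists. Lyve1 was at 497 CPM in the rich and 242 in the poor barcodes of R1, and at 932 and 492 in R2. Cd163 was at 460 and 285 in R1 and 709 and 373 in R2, and Mrc1 at 3437 and 2004 and at 3997 and 2114. Cx3cr1 was at 480 against 173 in R1 and 622 against 184 in R2, Mertk at 135 against 19.0 and 135 against 35.9, and Jun at 322 against 63.9 and 334 against 106. Pf4 and Ccl24 were close between the kinds, Ccl24 at 232 against 238 in R1 and 274 against 309 in R2.

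Fth1 and Tmsb4x ran the other way. Fth1 was at 6746 CPM in the rich and 10424 in the poor barcodes of R1, and at 6617 and 9957 in R2, and Tmsb4x at 13850 and 24347 and at 15709 and 24287. Erythroid markers summed to 12656 CPM in the rich and 53014.5 in the poor barcodes of R1 and to 1074 and 38776 in R2, and monocyte markers to 74.8 and 1023 and to 99.6 and 564. Endothelial markers were higher in the rich barcodes, at 482 against 112 CPM in R1 and 377 against 189 in R2. The fibroblast, mural, astrocyte and oligodendrocyte sums were higher in the rich barcodes of R1 and in the poor ones of R2. Hbb-bs was at 7394 against 29231 CPM in R1 and 658 against 21397 in R2, and Ptgds at 9091 against 15962 and 10121 against 31399. The monocyte genes Ccr2, Ly6c2 and Plac8 were at 0 in the rich barcodes of both libraries, and at 104, 117 and 100.1 CPM in the poor barcodes of R1 and 28.1, 49.97 and 46.8 in R2. The plot by Malat1 content shows the order of these genes in both libraries.

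**Figure D4:**
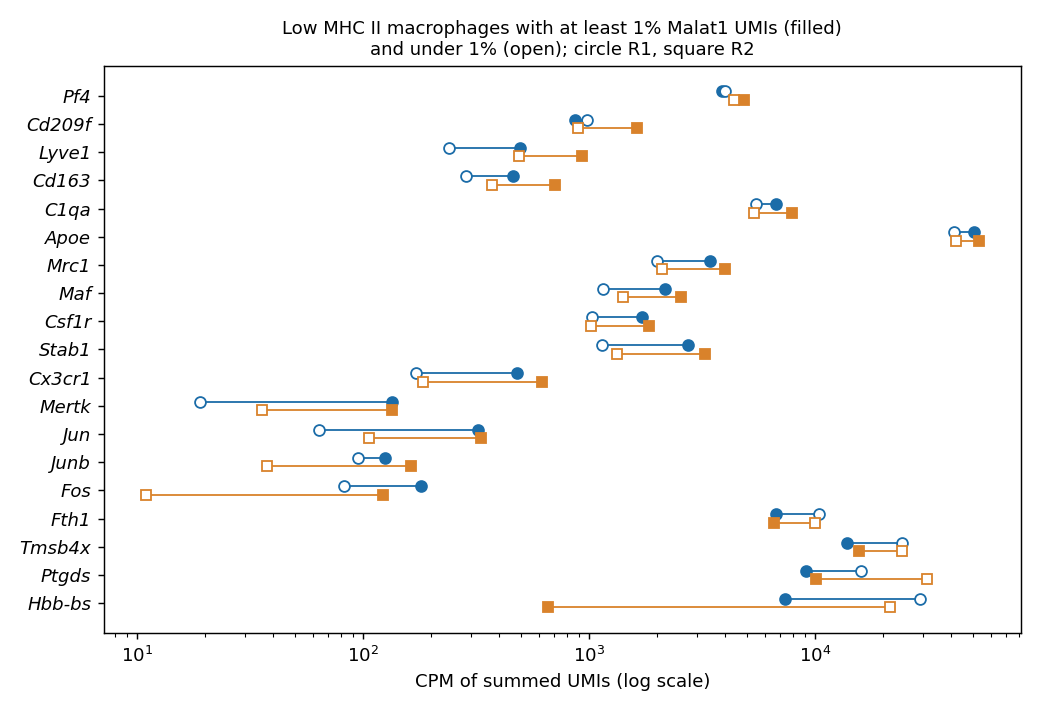
CPM of summed UMIs (horizontal axis, log scale) of 19 genes (rows) in low-MHC macrophages with at least 1% (filled) and under 1% (open) Malat1 UMIs; circles are R1, squares R2, and a line joins the values of a library. Lyve1, Cd163, Mrc1 and Jun are higher in the filled symbols of both libraries, and Fth1, Tmsb4x, Ptgds and Hbb-bs in the open ones.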

How the data were processed

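Raw UMI counts per gene and barcode of both libraries were deposited by the authors. The matrix header names Cell Ranger 4.0.0, and the submitters' processing notes name genome build mm10. There are 32287 features, and no deposited barcode has fewer than 500 UMIs. Deposited feature lists give each gene's symbol and Ensembl identifier (other, per the file headers). R1 held 7276 barcodes and 14586462 UMIs and R2 6743 and 12359040, of which 2988 and 3038 barcodes were kept. Coordinates are from GENCODE on mm10.

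Counts were summed per library and class and tested with edgeR 4.0.16 (quasi-likelihood, TMM, filterByExpr, library as a block, 2 residual degrees of freedom, biological coefficient of variation 0.106), in R 4.3.3 with limma 3.58.1. DESeq2 1.42.0 was an alternative. The fit was tested on simulated data. Python 3.11.15, numpy 2.4.6, scipy 1.17.1, pandas 2.3.3 and matplotlib 3.10.9 did the rest. Shares carry exact Clopper-Pearson 95% intervals. A fold against 0 UMIs is a lower bound with 3 UMIs over both libraries in place of 0, and ratios over 1 to 3 UMIs carry a 95% counting interval. Endothelial-gated barcodes had at least 4 UMIs of Cldn5, Flt1, Pecam1, Ly6c1 and Itm2a and under 4 of the macrophage genes. Thinning used seed 1.

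Genes named are the given markers, the gate's genes, per list and comparison the 2 largest called changes with the same direction in both libraries and at least 50 CPM on the higher side, the 5 largest each way over all genes, the 10 most abundant and the 10 most dispersed. A few genes picked this way are not reported here. Other genes named were chosen after their values were seen, to show their list. The members and gene lists were chosen with earlier results of these data known. Alternatives tried were other normalization, no filter, no block, DESeq2, stricter barcode filters, Malat1-rich or -poor barcodes, other MHC class II limits and gates, shared or erythroid-rich barcodes or those with other cells' UMIs left out, and each library alone.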

Additional observations from a re-analysis of the deposited data

Results flagged for a closer look

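Barcodes outside the filters on genes and mitochondrial UMIs also held macrophage RNA. Of the 4288 such barcodes of R1, 185 met the 3 conditions for low-MHC macrophages, 4.31% (exact 95% interval 3.73 to 4.97%), and of the 3705 of R2, 171 did, 4.62% (3.96 to 5.34%). A count of 0 would allow up to 0.0700 and 0.0810%, for counting error only. They enter no comparison above and were noted because they are a signal in data that the comparisons do not use.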

How the results depend on the processing

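Values for low-MHC macrophages over MHC class II macrophages come first in each pair, higher before lower. Without the filter on low counts 200 and 257 genes were called, so that 43.8% of calls were higher against 31.1% with it, and the median of all genes moved from 0.04 to 0.53. DESeq2 called 43 and 195 (18.1% higher), under 1% Malat1 16 and 53, the 0.3 to 2% barcodes 9 and 12, and those of at least 2% 288 and 319. With barcodes of 5 or more UMIs of other cell types left out, edgeR called 0 and 0 of 308 tested genes (11 and 16 at an unadjusted p below 0.05, DESeq2 not run there). Against microglia-gated barcodes the counts were 260 and 295 with DESeq2, 147 and 181 under 1% Malat1, and 24 and 46 with those barcodes left out. Leaving them out left 67 and 99 low-MHC macrophages, 5 and 6 MHC class II macrophages and 9 and 7 microglia-gated barcodes. Without the library block 95 and 253 genes were called, and 707 and 665 against microglia, so the block moved no count by over 1.5 times. The cause was not tested, beside the smaller number of barcodes and genes these settings leave.

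Signs turned for Hbb-bt (-0.18, erythroid-rich barcodes left out), for Ifitm3 against MHC class II macrophages (0.22) and H2-K1 against microglia (-0.10) with other cells' UMIs left out, and for Egr1 (1.24) and Mgl2 (0.0755) beside the 0.3 to 2% barcodes. The other genes named by the rule and reported kept their direction under the alternatives run. The share of kept barcodes in R1 was 11.7% with at least 1000 genes, 6.54% with at least 1% Malat1, 13.2% with a 0.1% limit and 13.4% with a gate of 6 UMIs. In R2 it was 17.1, 10.1, 16.9 and 15.8%, and 20.8% with at most 5% mitochondrial UMIs. The share of macrophage-gated barcodes in R1 was 89.8, 88.0, 82.3 and 95% under the same 4 settings, and 86.4% in R2 with the 0.1% limit. Each library alone leaves no residual degrees of freedom and was used for fold changes only. The settings on 0.3 to 2%, at least 2% and erythroid-rich barcodes, and classes down to 5 barcodes where planned settings left under 20, were chosen after seeing the data.

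Depth limits what these cells show: the median low-MHC macrophage had 1453.5 UMIs in R1 and 1227 in R2, and a count of 0 in the class allows up to 2.69 and 2.49 CPM.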
